A study of Bos taurus with 18 samples.

Results

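The 5 genes described here, CCDC117, USPL1, DEDD2, TNFSF9 and ZFAND2A, code for no chaperone and were raised in bovine mammary cells at the end of 1 h of heat. They were chosen by name for that rise, out of 30642 genes in the count table. Their heat values are thus a description, and calls on them support nothing. Their recovery values were known at that choice too, so calls on the fall after heat are also a description. All 5 passed the filter on low counts, as did 15158 genes in all. The cells were MAC-T, an immortalised line of bovine mammary epithelium, and the 18 poly-A RNA libraries formed 6 groups of 3. NHSUD was unheated and undifferentiated (37 °C, basal medium with insulin and 1 µg/ml hydrocortisone), and NHSD was unheated and differentiated (4 days in lactogenic medium, which adds 5 µg/ml prolactin and 10 µg/ml dexamethasone). HSUD and HSD were the same cultures held at 42 °C for 1 h before collection, and D2R and D6R were differentiated cells returned to 37 °C for 2 h or 6 h after that heat. The medium thus held a glucocorticoid in every group, and recovery was followed in differentiated cells only. The whole experiment was repeated 3 times (runs 1 to 3, the replicate numbers), each library pooled RNA of 2 technical replicates, and p-values measure the spread between these runs of 1 cell line. Unheated, heated and recovery cells lay on 3 separate plates in each run, so heat and recovery cannot be told apart from the plate.

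Heat unfolds proteins and activates heat shock transcription factors, which switch on chaperone genes within minutes and switch them off again as protein folding recovers. The same response reaches genes outside the chaperone families. ZFAND2A codes for an AN1-type zinc finger protein that associates with the proteasome and is known as an arsenite- and heat-inducible target of heat shock factor HSF1. USPL1 is a protease that removes SUMO, a small protein tag that is attached to many nuclear proteins under heat. DEDD2 is a nuclear protein with a death effector domain, the fold through which initiator caspases are recruited, and TNFSF9 is a cell-surface ligand that stimulates T cells through its receptor TNFRSF9. CCDC117 is named for its coiled coil, and its function is less well described.

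Library totals ranged from 40.9 M to 61.2 M counts, and the 5 genes had between 599 counts (the lowest library of USPL1) and 13515 counts (the highest of ZFAND2A) in a library. Levels are TMM-scaled CPM, the counts of a gene relative to the scaled total of its library; they depend on transcript length, so they are compared between groups and not between genes. In such bulk samples, fewer responding cells and less RNA per cell cannot be told apart. The epithelial label was borne out by the keratin genes KRT8 (3140 to 4659 CPM) and KRT18 (1637 to 3114 CPM) in every library, and all 9 epithelial markers had reads, although ELF5 did not exceed 0.316 CPM. Summed levels of 7 fibroblast markers ranged from 428 to 821 CPM over the libraries and overlapped among all groups; nearly all of it was DCN (417 to 813 CPM), while COL1A1 and COL1A2 did not exceed 0.347 CPM. Summed levels of 5 myoepithelial markers ranged from 93.8 to 249.8 CPM, nearly all ACTA2, and those of 7 endothelial and blood cell markers from 2.46 to 5.42 CPM.

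ZFAND2A had the largest rise of the 5 genes. In undifferentiated cells its level was 30.3, 30.2 and 24.3 CPM without heat in runs 1 to 3, and 174, 202 and 114 CPM with heat. In differentiated cells it was 27.4, 34.6 and 26.9 CPM without heat and 267, 142 and 115 CPM with heat. Every heated library lay above every unheated one, and the heated libraries also differed most from each other, with run 1 highest in HSD and run 2 highest in HSUD. The log2 fold change was 2.53 ± 0.42 (SE) in undifferentiated and 2.56 ± 0.42 in differentiated cells, and the fold within runs was 5.70 ± 1.00 (SD, n = 3) and 6.04 ± 3.21. It ranked 24th and 11th from the highest fold change among the 15158 genes tested in the 2 media.

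USPL1, the SUMO protease, was at 10.9, 16.0 and 12.3 CPM in NHSUD and at 32.3, 39.1 and 30.7 CPM in HSUD. In differentiated cells it went from 13.0, 16.8 and 13.9 CPM to 32.9, 36.6 and 33.7 CPM. The heated libraries of both media lay close together, from 30.7 to 39.1 CPM, and all lay above the highest unheated library at 16.8 CPM. The log2 fold change was 1.38 ± 0.16 (SE) in undifferentiated and 1.24 ± 0.16 in differentiated cells.

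DEDD2, the death effector domain protein, was at 31.9, 29.3 and 34.6 CPM in NHSUD and at 85.2, 82.9 and 61.1 CPM in HSUD. It was at 31.4, 29.5 and 34.6 CPM in NHSD and at 92.9, 60.3 and 66.7 CPM in HSD. The unheated level was nearly the same in both media, and the heated level spread more, with run 1 highest in each medium. The log2 fold change was 1.26 ± 0.17 (SE) and 1.2 ± 0.17.

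TNFSF9, the T-cell ligand, was at 31.3, 41.0 and 42.8 CPM in NHSUD and at 77.7, 78.6 and 83.1 CPM in HSUD. In differentiated cells the values were 31.7, 41.3 and 42.4 CPM without heat and 79.3, 78.2 and 83.3 CPM with it. Run 1 was lowest without heat and level with the other runs after heat, so that its rise was the largest (2.48-fold and 2.50-fold, against 1.90-fold to 1.97-fold in the other runs). The log2 fold change was 1.06 ± 0.16 (SE) in each medium.

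CCDC117 was at 26.5, 28.6 and 28.5 CPM in NHSUD and at 76.0, 82.4 and 74.8 CPM in HSUD. It was at 26.7, 27.3 and 25.6 CPM in NHSD and at 81.8, 66.2 and 70.4 CPM in HSD. Its unheated libraries differed little, with an SD of 1.17 CPM in NHSUD and 0.849 CPM in NHSD. The rise within runs was 2.79 ± 0.145-fold (SD, n = 3) and 2.75 ± 0.319-fold. The log2 fold change was 1.48 ± 0.16 (SE) and 1.46 ± 0.16.

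In each medium, heated and unheated libraries did not overlap for any of the 5 genes, as for 3.99% (undifferentiated) and 3.75% (differentiated) of all genes tested on the higher side. All 5 were called higher with heat in each medium (edgeR, adjusted p under 0.05), where 0.119% and 0.0858% of all genes were. With a replicate block, a fit that also removes differences between runs, the calls of ZFAND2A were lost and 4 of 5 remained called in each medium, against 0.383% and 0.29% of all genes. When only the compared groups were fitted, 2 and 3 of 5 were called, against 0.0644% of 13970 and 0.0771% of 14263 genes tested. ZFAND2A also lost its call with no filter on low counts (edgeR, adjusted p of 0.12 and 0.107), without any 1 unheated library of the same medium, without HSUD replicate 1 or 2, and without HSD replicate 1. TNFSF9 lost its call without NHSUD replicate 1 (0.0648) or NHSD replicate 1 (0.0521). These counts restate how the genes were chosen.

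**Figure D1:**
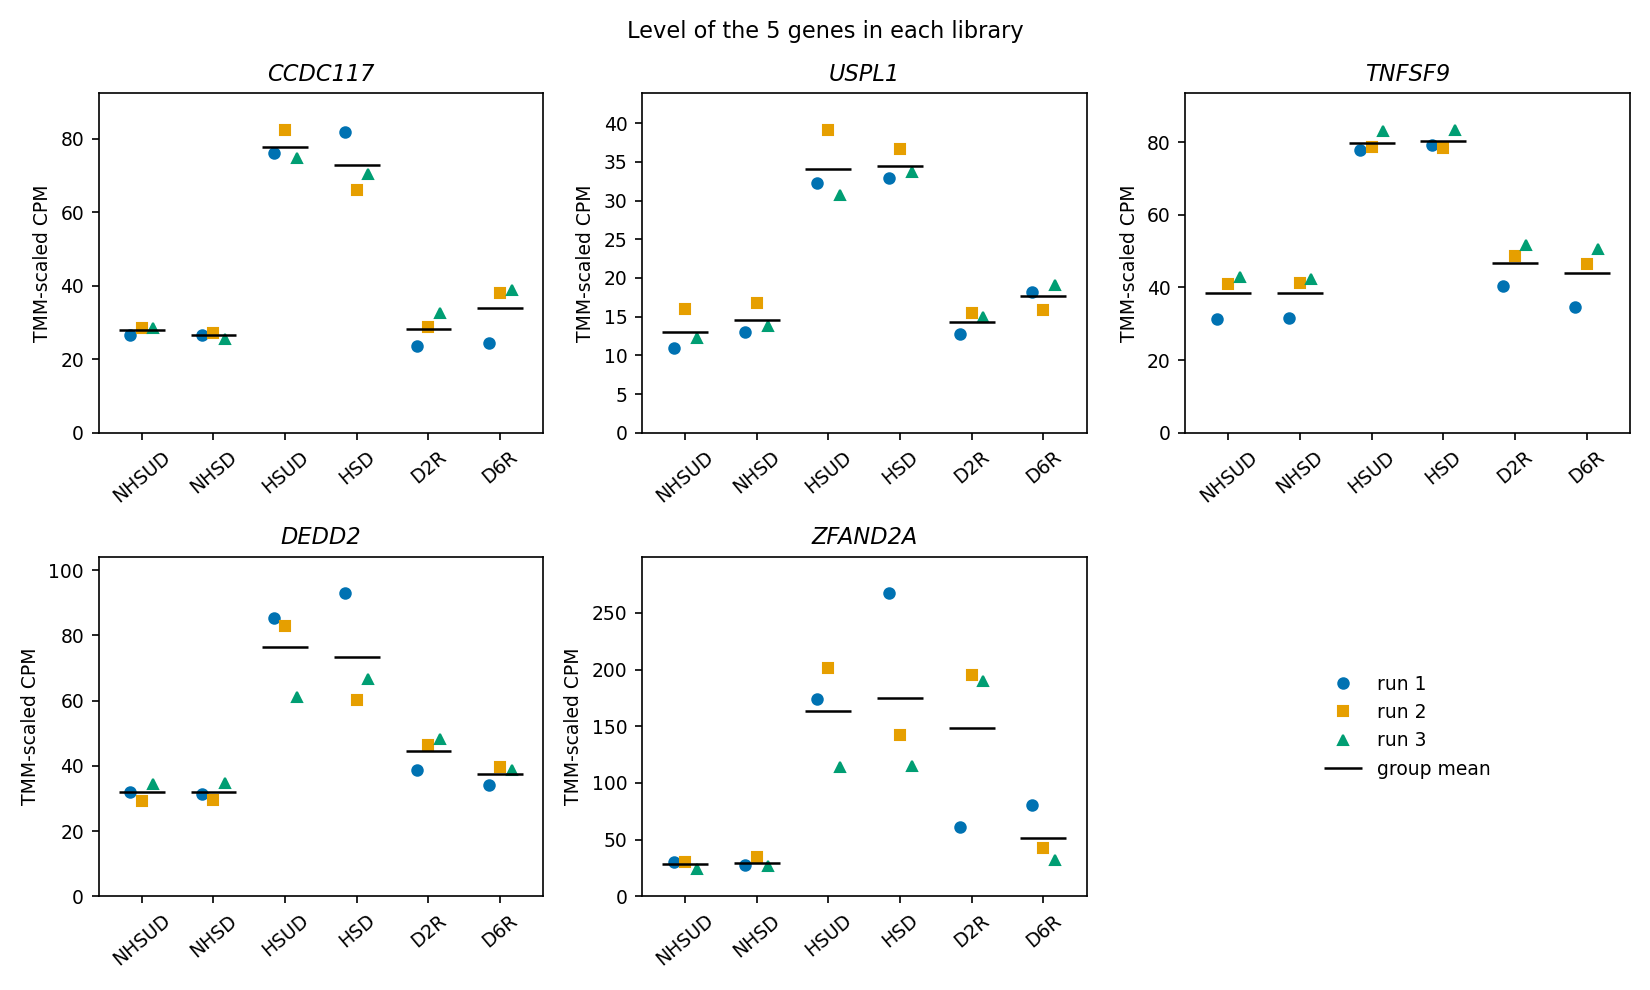
TMM-scaled CPM of the 5 genes in each of the 18 libraries (vertical axis, linear, from 0), by group, with one symbol per run and a line at the group mean. All 6 heated libraries (HSUD, HSD) lie above all 6 unheated ones for each gene, and at 2 h of recovery (D2R) the genes other than ZFAND2A lie below every HSD library, while ZFAND2A runs from 60.8 to 195 CPM.

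No difference between the media passed the test for these genes, either without heat or in the response to it. Between NHSD and NHSUD the log2 difference lay between -0.07 (CCDC117) and 0.16 (USPL1), none of the 5 was called (edgeR, adjusted p of 1 for each; 0% of all genes called, 253 at an unadjusted p under 0.05; DESeq2 called 0), and the 95% intervals reached from -0.41 to 0.50 for the genes other than ZFAND2A and from -0.78 to 0.91 for ZFAND2A. The heat effect was also compared between the media directly. The difference of the 2 heat effects was -0.02 ± 0.23 (SE, log2) for CCDC117, -0.14 ± 0.23 for USPL1, -0.06 ± 0.23 for DEDD2 and 0.03 ± 0.56 for ZFAND2A. For TNFSF9 it was below 0.01 in size, with an interval from -0.47 to 0.48. None was called (edgeR, adjusted p of 1; 0% of all genes called, 88 at an unadjusted p under 0.05; DESeq2 called 0). The interval of ZFAND2A, from -1.16 to 1.22, includes differences of more than 2-fold in either direction. Its rise in run 1 was 9.74-fold in differentiated and 5.74-fold in undifferentiated cells while run 2 had 4.11-fold and 6.68-fold.

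After 2 h at 37 °C, CCDC117 and USPL1 had fallen back to about the unheated level. CCDC117 was at 23.5, 28.9 and 32.6 CPM in D2R, and it fell by 1.36 on the log2 scale from HSD (SE 0.16; edgeR, adjusted p of 0.00106; lower in 3 of 3 runs). USPL1 was at 12.7, 15.5 and 14.9 CPM, and it fell by 1.26 (SE 0.16; edgeR, adjusted p of 0.00205; lower in 3 of 3 runs). Of all genes, 18.1% were lower in D2R than in HSD in 3 of 3 runs. The D2R libraries of CCDC117 and USPL1 lay below every HSD library and overlapped the NHSD libraries. Both calls were kept without any 1 HSD or D2R library, but with a whole run left out, CCDC117 was not called without run 2 or 3 (edgeR, adjusted p of 0.24 and 0.0848) and USPL1 not without any run (0.115 to 0.317). The share of the heat rise that was left at 2 h, taken within each run as (D2R - NHSD)/(HSD - NHSD) in CPM, was 4.67% ± 10.7 (SD, n = 3) for CCDC117 and -0.919% ± 6.11 for USPL1. Against NHSD, the log2 difference was 0.09 (95% interval -0.24 to 0.43) for CCDC117 and -0.02 (-0.36 to 0.32) for USPL1.

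TNFSF9 and DEDD2 lay between their heated and unheated levels at 2 h. TNFSF9 was at 40.3, 48.6 and 51.7 CPM in D2R, below every HSD library, with 20.2% ± 2.29 (SD, n = 3) of the rise left and little spread between runs. DEDD2 was at 38.6, 46.4 and 48.3 CPM, below every HSD and above every NHSD library, with 11.7%, 54.8% and 42.6% of the rise left in runs 1 to 3. The log2 change from HSD was -0.78 ± 0.16 (SE) for TNFSF9 (edgeR, adjusted p of 0.134) and -0.72 ± 0.17 for DEDD2 (adjusted p of 0.284). Neither was called in this main fit, which leaves out the pairing of the libraries by run. Both were lower in 3 of 3 runs, as were 18.1% of all genes. With the replicate block both were called (edgeR, adjusted p of 0.000226 and 0.0439), as they were by DESeq2 (0.00335 and 0.0292).

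Of the 5 genes, 2 were thus called lower at 2 h than at the end of heat in the main fit, against 0.033% of all genes. The count was 4 with the replicate block, which uses the pairing by run (0.172% of all genes), and 4 with DESeq2, which does not (0.139%). HSD and D2R libraries did not overlap for 4 of the 5, on the lower side, as for 3.98% of all genes. HSD is the group in which these genes were chosen for being high, and their D2R values were also known then. A fall from HSD to D2R is therefore not independent of the choice, and its calls are a description.

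ZFAND2A followed another course, and the runs differed. In run 1 it went from 267 CPM at the end of heat to 60.8 CPM at 2 h and 80.3 CPM at 6 h. In run 2 it went from 142 to 195 and then to 42.9 CPM, and in run 3 from 115 to 190.2 and then to 32.2 CPM. The highest library of the course was thus the one at the end of heat in run 1 and the one at 2 h of recovery in runs 2 and 3, and 13.9%, 149% and 186% of the heat rise was present at 2 h. The mean change from HSD to D2R was -0.23 ± 0.40 (SE, log2; edgeR, adjusted p of 0.9999), an average over a lower level in 1 run and higher levels in 2. Without run 1, left out after its values were seen, it was 0.61 ± 0.26 (adjusted p of 0.999).

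The chaperone genes showed where run 1 stood apart. HSPH1, which codes for a nucleotide exchange factor of HSP70, had 34.5% of its heat rise present at 2 h in run 1, 244% in run 2 and 348% in run 3. HSPA1A, an inducible HSP70, had 5.84%, 45.4% and 72.8%, and DNAJB1, an HSP70 cochaperone, had 0.877%, 11.9% and 14.5%. At 6 h run 1 was the highest of the D6R libraries for ZFAND2A, HSPH1, HSPA1A and DNAJB1. CCDC117, USPL1, DEDD2 and TNFSF9 were also lowest in run 1 at 2 h, by smaller margins, and for USPL1 and TNFSF9 run 1 was the lowest without heat as well. What in run 1 differed was not tested, and the labels give no date, operator or batch for a run.

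**Figure D2:**
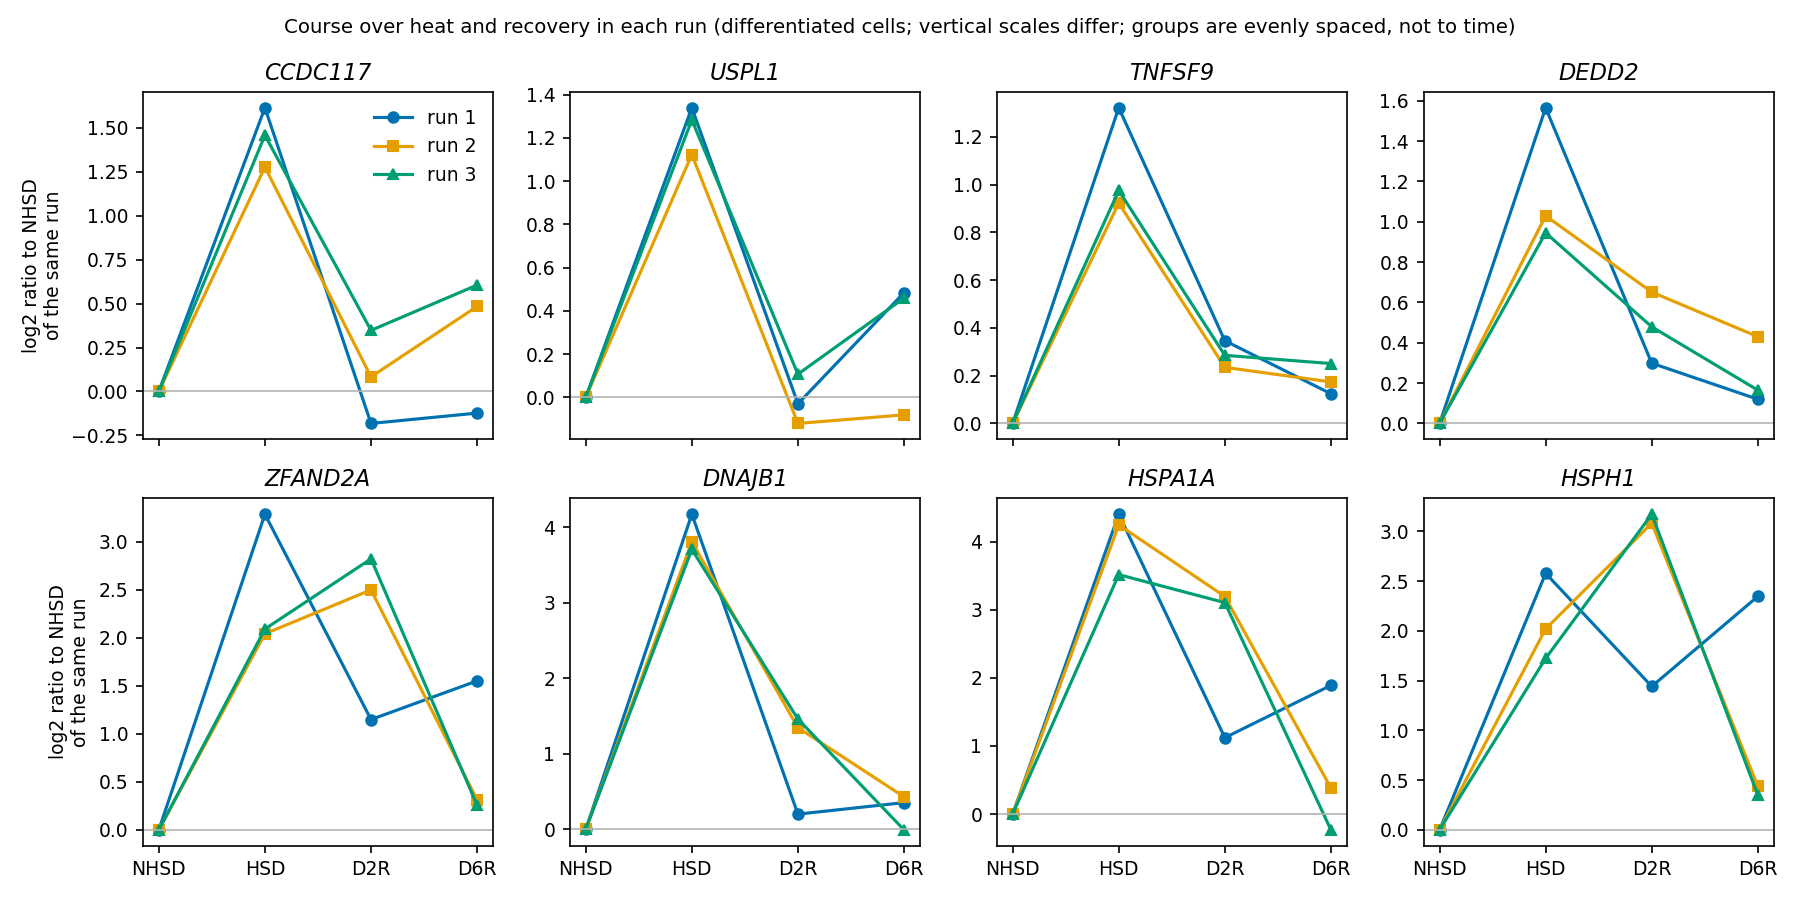
Log2 ratio of each group to NHSD of the same run (vertical axis, scale differs by panel) for the 5 genes and 3 chaperone genes, in the order unheated, end of heat, 2 h and 6 h of recovery, with one line per run. At 2 h CCDC117 lies at -0.18, 0.08 and 0.35 in runs 1 to 3, and USPL1 lies between -0.12 and 0.11. ZFAND2A and HSPH1 rise further from HSD to D2R in runs 2 and 3 and fall in run 1.

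Against unheated cells, ZFAND2A was the only one of the 5 genes called at 2 h, where 0.0792% of all genes were called higher. It was at 60.8, 195 and 190.2 CPM in D2R against 27.4, 34.6 and 26.9 CPM in NHSD. This was higher in 3 of 3 runs, as for 15% of all genes. The log2 fold change was 2.33 ± 0.42 (SE, with a 95% interval of 1.45 to 3.21), called by edgeR with an adjusted p of 0.0434. The call was lost with the replicate block (adjusted p of 0.114, with 0 of the 5 genes and 0.165% of all genes called higher), in the fit of the 2 groups alone (0.181), without any 1 NHSD library (0.2645 to 0.32) and without D2R replicate 2 (0.29) or 3 (0.311). Without D2R replicate 1 the adjusted p was 0.00222, and DESeq2 gave 5.95e-06 on all libraries. DEDD2 had a log2 difference of 0.48 (95% interval 0.13 to 0.83) and was not called (edgeR, adjusted p of 0.999; unadjusted p of 0.00982), and TNFSF9 had 0.28 (-0.05 to 0.62). D2R and NHSD libraries did not overlap for 2 of the 5 genes, ZFAND2A and DEDD2, on the higher side, as for 3.44% of all genes. This comparison shares its NHSD libraries with the heat comparison in which the genes were chosen.

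**Figure D3:**
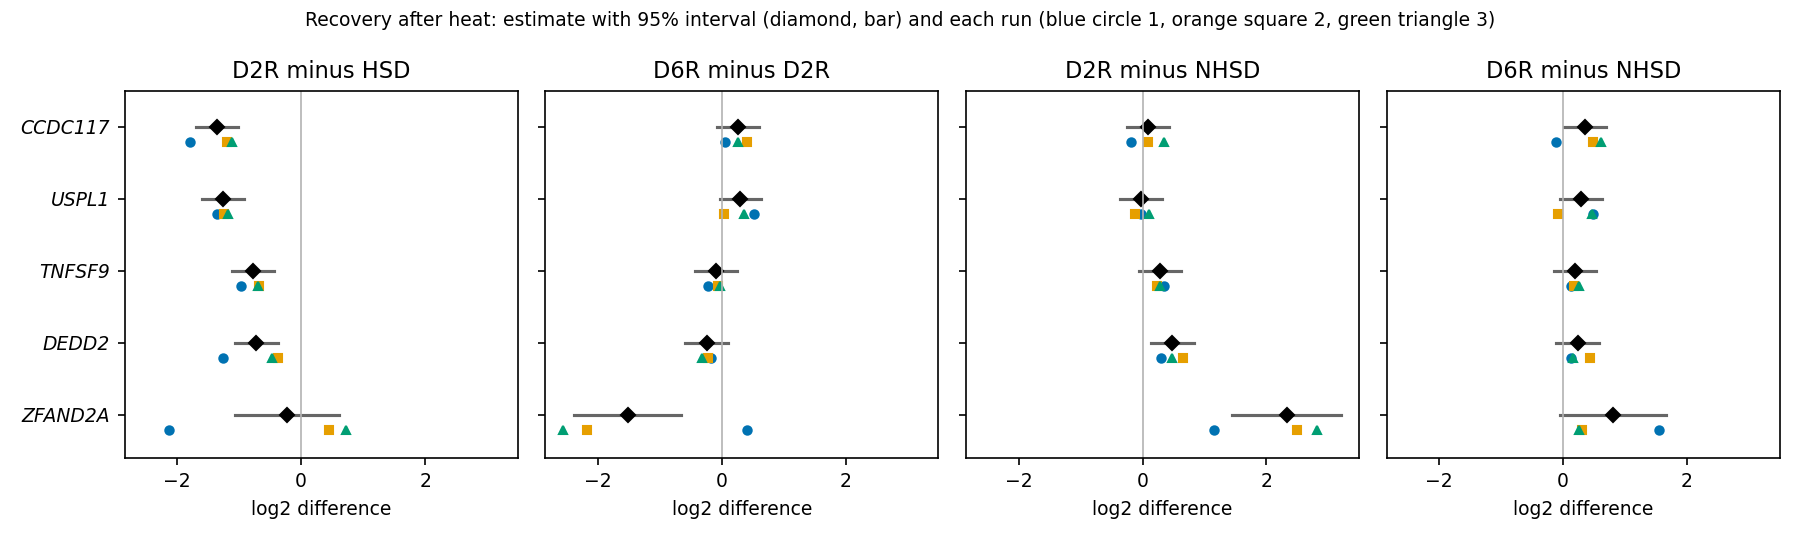
Log2 differences for 4 recovery comparisons of differentiated cells (horizontal axis), with the estimate over the 3 libraries a group as a diamond, its 95% interval as a bar and the differences within runs 1 to 3 as coloured symbols below. The runs of USPL1 and TNFSF9 from HSD to D2R lie within the interval of the estimate, and run 1 of CCDC117 and of DEDD2 lies below it; for ZFAND2A run 1 lies at -2.14 from HSD to D2R and runs 2 and 3 at 0.46 and 0.73.

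Between 2 h and 6 h no gene of the 5 was called (edgeR; 0% of all genes called, 585 at an unadjusted p under 0.05; DESeq2 called none of the 5 and 3 genes in all). The recovery values, too, were known when the genes were chosen. ZFAND2A was at 80.3, 42.9 and 32.2 CPM in D6R, with a log2 change from D2R of -1.52 ± 0.41 (SE; 95% interval -2.38 to -0.66; unadjusted p of 0.00162, adjusted p of 0.9996). Run 1 changed by 0.40 and runs 2 and 3 by -2.18 and -2.56, and without run 1, left out after its opposite direction was seen, the change was -2.36 ± 0.27 with an adjusted p of 0.0119 (edgeR; 0.0784% of 15300 genes called lower). That was the only 1 of 16 alternative settings in which ZFAND2A was called. USPL1 was at 18.2, 15.9 and 19.0 CPM in D6R, above every D2R library, as for 4.33% of all genes. Its change was 0.30 ± 0.16 (SE), with an adjusted p of 0.9996 by edgeR. CCDC117 was at 24.5, 38.2 and 38.97 CPM and changed by 0.26 ± 0.16, while TNFSF9 (34.6, 46.6 and 50.4 CPM) changed by -0.09 ± 0.16 and DEDD2 (34.1, 39.8 and 38.8 CPM) by -0.24 ± 0.17.

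At 6 h none of the 5 genes was called against NHSD (edgeR, 0.0132% of all genes called, 920 at an unadjusted p under 0.05; DESeq2 called none of the 5 and 39 genes in all). All 5 estimates were above 0, with a median of 0.28, beside -0.002 over all genes. As a share of the heat rise, the difference from NHSD ranged from 11.9% ± 8.81 (SD, n = 3) for ZFAND2A to 17.9% ± 19.0 for CCDC117. This was not a steady decay for CCDC117 and USPL1, whose mean shares were 4.67% and -0.919% at 2 h and 17.9% and 15.9% at 6 h. The log2 difference was 0.80 (95% interval -0.04 to 1.65) for ZFAND2A, 0.35 (0.02 to 0.69) for CCDC117 and between 0.19 and 0.28 for the other 3. D6R libraries overlapped those of NHSD for each of the 5. The ZFAND2A difference came mostly from run 1 (1.55, against 0.31 and 0.26 in runs 2 and 3), whereas that of CCDC117 came from runs 2 and 3 (0.48 and 0.60, against -0.12 in run 1).

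No relative of these genes passed the test for heat. ZFAND2B, the closest paralog of ZFAND2A, was at 18.5 to 24.9 CPM in the 6 heated libraries and at 19.1 to 24.2 CPM in the 6 unheated ones, with a log2 change of 0.04 ± 0.15 (SE) in undifferentiated and 0.01 ± 0.15 in differentiated cells. DEDD, the paralog of DEDD2, was at 38.9 to 45.1 CPM with heat and 34.2 to 42.9 CPM without, with changes of 0.15 ± 0.12 and 0.14 ± 0.12. TNFRSF9, the receptor of TNFSF9, had 6 to 40 counts in a library and log2 changes of -0.08 ± 0.59 and -0.87 ± 0.59 (95% intervals -1.33 to 1.18 and -2.12 to 0.39), so that at this depth a decrease of 2-fold lies within both intervals. None of the 3 was called (edgeR, adjusted p of 0.996 to 0.999).

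Few genes were called in all (0.119% and 0.0858% higher with heat), so that 0 calls in lists of this size is near the background. Of 9 further AN1 zinc finger and p97 genes (p97, coded by VCP, extracts ubiquitinated proteins), 9 were tested and 0 were called with heat in either medium, and their median log2 change was 0.04 and 0.06, beside 0.01 and -0.003 over all genes. Of 19 further genes of SUMO attachment and removal, 0 of 19 tested were called, with medians of 0.13 and 0.08. Of 6 further death effector domain genes, 5 were tested and 0 called (medians 0.14 and 0.12), and of 20 further TNF-type ligands and signalling genes, 12 were tested and 0 called (medians -0.10 and -0.22). None was called with the replicate block either.

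Other non-chaperone genes known to respond to heat did move in part. Of 16 such genes, 3 were called higher in undifferentiated cells (JUN, CLK1 and CLK4) and 2 in differentiated cells (CLK1 and CLK4). The shares of all genes called higher were 0.119% and 0.0858%. Estimates were above 0 for 13 of the 16 in each medium. With the replicate block 6 and 5 were called, beside 0.383% and 0.29%. The kinase gene CLK4 rose from 14.3 ± 0.64 CPM (SD, n = 3) in NHSUD to 33.5 ± 6.98 in HSUD (log2 fold change 1.23 ± 0.17 SE; edgeR, adjusted p of 0.004). The median of the 16 was 0.31 and 0.22, beside 0.01 and -0.003 over all genes. This list, like the others, was drawn up with earlier results of these data known, so its calls are no independent support. Of 22 chaperone genes, 7 were called higher in undifferentiated and 6 in differentiated cells (10 in each with the block), beside the same shares of all genes. Estimates were above 0 for all 22 in each medium, with medians of 0.89 and 0.92. Of the 4 heat shock factor genes HSF1, HSF2, HSF4 and HSF5, 0 were called, and HSF1 itself changed by -0.10 ± 0.15 and -0.08 ± 0.15.

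**Figure D4:**
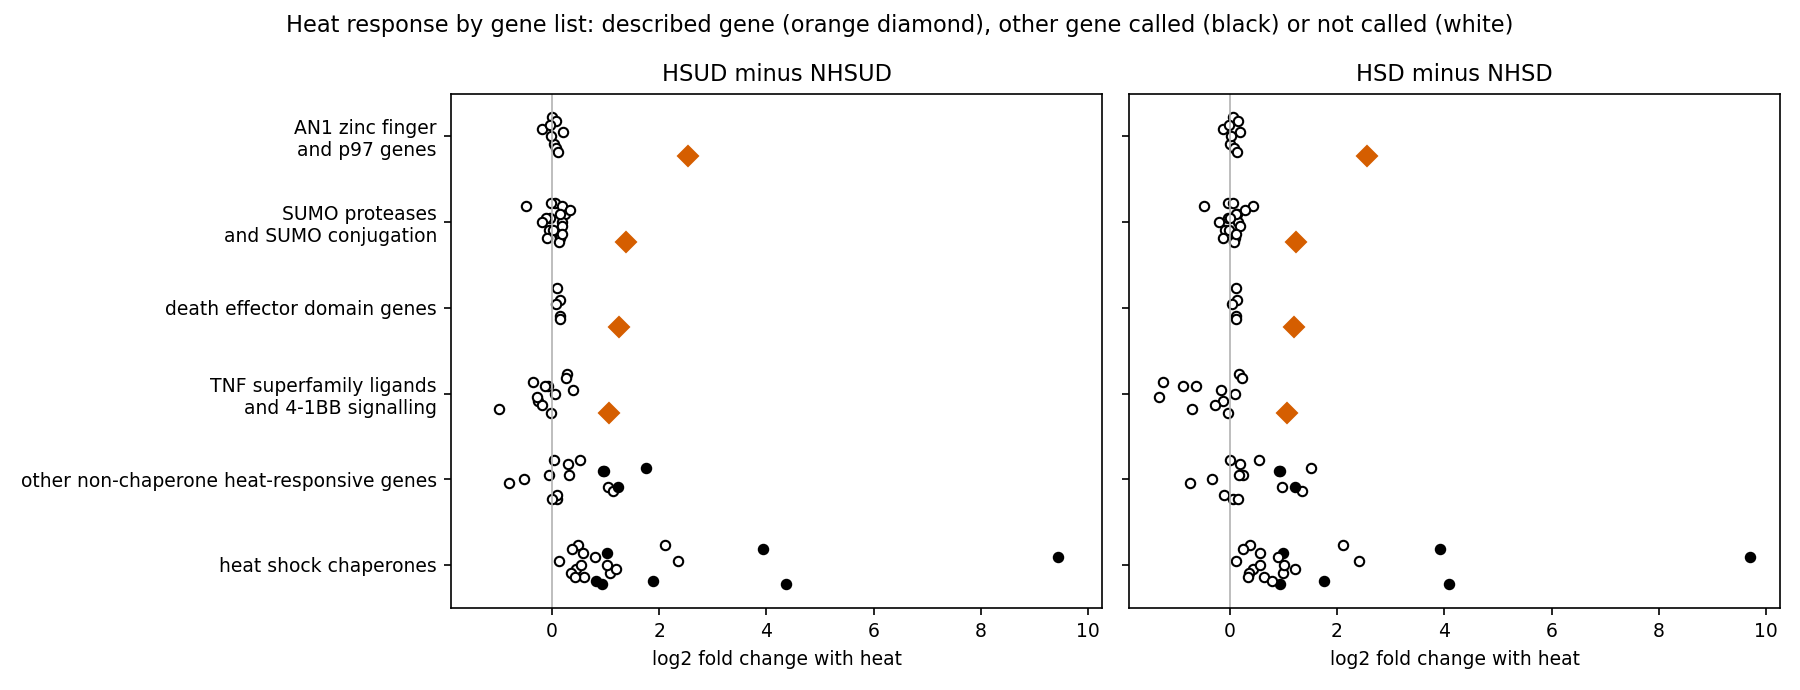
Log2 fold change with heat in undifferentiated (left) and differentiated (right) cells for each tested gene of 6 gene lists (one row a list; vertical scatter within a row is for legibility). Orange diamonds are ZFAND2A, USPL1, DEDD2 and TNFSF9 in their own families, filled circles other genes called by edgeR and open circles genes not called; in the upper 4 rows no circle is filled.

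The genes most like each of the 5 across the 18 libraries were looked up, after the mean of each run was removed, among 9762 other genes with a symbol and at least 5 CPM. TNFSF9 and the cochaperone gene DNAJB1 were among the nearest 3 genes of both DEDD2 and CCDC117, and USPL1 was the third nearest of CCDC117 (0.95). The Pearson correlation was 0.97 between TNFSF9 and DEDD2, 0.96 between TNFSF9 and CCDC117, and 0.98 between TNFSF9 and DNAJB1. DEDD2 also had HSPA6, an inducible HSP70 gene, among its nearest 3 (0.96). USPL1 was most like CLK1, a kinase of splicing factors (0.95), followed by CCDC117 (0.95) and TNFSF9 (0.94). ZFAND2A was most like BAG3 (0.98), a cochaperone gene, RSRP1 (0.98), named for its arginine- and serine-rich stretches, and HSPA1A (0.96), and ranked 17th among the genes most like DEDD2 (0.87), 43rd for TNFSF9 (0.80), 94th for USPL1 (0.72) and 120th for CCDC117 (0.70). The libraries share their heat treatment, runs and scaling, and the 5 genes were chosen for 1 feature of this pattern, so these values describe the shape of the course only.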

How the data were processed

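The deposited table holds raw counts per gene for 18 libraries. Per the labels' protocols, the authors used fastp 0.23.2 on the paired-end reads before alignment to ARS-UCD 1.3 by STAR 2.7.9a; featureCounts 2.0.3 is named in the submitters' processing notes, with its strand and pair settings not given in the sources used here. Among counts of 1 to 20, 72.7% were even, so both mates of a pair may have been counted, and reads may be shared between near-identical or overlapping genes. Column names matched the labels, and 0 columns were left over. Counting error was not separated from the spread between libraries. It need not be small where libraries differed little, as for CCDC117 in NHSD (SD of 0.849 around 26.5 CPM, with 1267 to 1475 counts).

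Genes were filtered with edgeR 4.0.16 (filterByExpr, minimum count 10), scaled by TMM (levels as CPM) and fitted in R 4.3.3 on the 18 libraries together, each group having 1 mean; contrasts were tested with the robust quasi-likelihood test, two-sided, with Benjamini-Hochberg adjustment over 15158 genes and a threshold of 0.05. SE and 95% intervals come from the F statistic. With 3 libraries a group an exact permutation test cannot go below p = 0.1, so only the model was used. The fit was tested on simulated data. Same-numbered libraries of different groups deviated together in 45 of 45 pairs (correlation 0.135 to 0.596), and the labels state that the experiment was repeated, so replicate numbers pair the libraries. The main fit leaves this pairing out, and only the replicate block uses it. The common coefficient of variation was 0.245 without the block and 0.14 with it, so calls of the main fit and the block can differ. No 2 libraries of a group were duplicates (chi-square per gene of at least 63.3).

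Alternatives were DESeq2 1.42.0, its size factors, library size alone, no filter or 5 CPM in 3 libraries, the compared groups alone, the replicate block, each library left out and, chosen after seeing the data, each run left out. The genes, gene lists and tests were chosen with earlier results of these data known. Genes named beside the 5 are list genes called with heat, the paralogs ZFAND2B and DEDD, the receptor TNFRSF9, 3 chaperone references, the nearest genes on the chromosome in the RefSeq table of ARS-UCD 2.0 and the 3 genes most like each of the 5 (Pearson correlation of log2 CPM, prior count 2); HSF1, ELF5, DCN and the other markers are named as members of their lists.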

Additional observations from a re-analysis of the deposited data

How the results depend on the processing

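Counts of the 5 genes called depended on the setting. For heat in undifferentiated cells 5 were called (0.119% of all genes), and 2 when only the compared groups were fitted (0.0644%). Leaving out a library or a run gave 0 to 5. For heat in differentiated cells fitting only those groups gave 3 (0.0771% of all genes). Left-out libraries or runs gave 0 to 5, with the values of 0 coming from runs left out, which leaves 2 libraries a group. Without NHSUD replicate 1 or NHSD replicate 1 the count was 3 in the respective medium, since TNFSF9 and ZFAND2A were lost. For 2 h of recovery against heat, DESeq2 and the replicate block each gave 4 in place of 2, and leaving out a library or a run gave 0 to 2. For 2 h against unheated cells the count of 1 fell to 0 with library size alone, with no filter, with the compared groups alone and with the block, and left-out libraries or runs gave 0 to 1. For 6 h against 2 h left-out libraries or runs gave 0 to 1. The block also ended the heat calls of ZFAND2A (edgeR, adjusted p of 0.0535 and 0.0604). It left 4 of 5 called in each medium and changed no other heat call of the 5. At 2 h the block added the calls of TNFSF9 and DEDD2 against heat and ended that of ZFAND2A against unheated cells. Over the heat comparisons the direction of all 5 genes held in every setting run. With library size alone the median of all genes moved from 0.01 to -0.09 for heat in undifferentiated cells.

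Several estimates near 0 changed sign, none of them called. Over left-out libraries and runs, the heat by medium difference ranged from -0.12 to 0.11 for CCDC117, -0.26 to 0.16 for DEDD2, -0.11 to 0.13 for TNFSF9 and -0.48 to 0.44 for ZFAND2A. The effect of the medium without heat ranged from -0.075 to 0.059 for DEDD2, -0.12 to 0.12 for TNFSF9 and -0.064 to 0.18 for ZFAND2A. At 2 h the range against NHSD was -0.042 to 0.22 for CCDC117 and -0.093 to 0.11 for USPL1, and that of ZFAND2A against HSD was -0.68 to 0.61, above 0 without HSD replicate 1, D2R replicate 1 or run 1. TNFSF9 ranged from -0.21 to 0.049 between 2 h and 6 h. With the filter of 5 CPM the TNFSF9 heat by medium difference was -0.0025 and the DEDD2 medium effect 0.010, the latter being 0.033 with library size alone. The TNFSF9 medium effect was -0.0035 with DESeq2, -0.0038 with its size factors and -0.00033 with no filter. The cause of these changes was not tested.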

Other observations

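Of the genes beside the 5 on the chromosome, 8 were tested and 0 were called with heat. Of all genes, 0.119% and 0.0858% were called higher in the 2 media, so 0 calls among 8 genes is near the background. In the RefSeq gene table, CCDC117 lies between HSCB and XBP1, a transcription factor gene of the unfolded protein response. XBP1 changed by 0.25 ± 0.16 (SE, log2) with heat in undifferentiated and 0.21 ± 0.16 in differentiated cells, and HSCB by 0.11 ± 0.20 and 0.21 ± 0.20. At 2 h of recovery XBP1 was at 131, 201 and 208 CPM in runs 1 to 3, against 138, 133 and 163 CPM at the end of heat, while CCDC117 was lower in every run. HMGB1, next to USPL1, changed by 0.12 ± 0.22 in each medium, ZNF526, next to DEDD2, by -0.07 ± 0.18 and -0.36 ± 0.18, and C25H7orf50, next to ZFAND2A, by 0.08 ± 0.13 and 0.05 ± 0.13. None of these neighbours was called with heat (edgeR, adjusted p of 0.996 to 0.999), with or without the replicate block.

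RSRP1 and BAG3, the genes most like ZFAND2A, also had their lowest D2R library in run 1. BAG3 was at 79.5, 469 and 512 CPM in D2R in runs 1 to 3, after 366, 225 and 184 CPM at the end of heat, and RSRP1 was at 43.1, 54.4 and 49.3 CPM after 63.8, 48.8 and 38.1 CPM. For both, as for ZFAND2A, the level was lower at 2 h than at the end of heat in run 1 and higher in runs 2 and 3. HSPA1A, also among the 3 genes most like ZFAND2A, was lower at 2 h in every run. It went from 9818 to 1010, from 6802 to 3281 and from 5222 to 3927 CPM in runs 1 to 3. These genes were picked for their likeness to ZFAND2A over the same libraries, so a shared course is no independent support.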
